A study of Mus musculus with 12 samples.

Results

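The glutathione transferases described here are the Pi class genes Gstp1, Gstp2 and Gstp3, the theta class genes Gstt1, Gstt2 and Gstt3, the kappa gene Gstk1, the zeta gene Gstz1, the omega gene Gsto1 and the microsomal gene Mgst1. They were taken as rows of both deposited count tables by gene name, and all 10 were found among 20093 genes listed in both tables. Gstp3 is listed under its older name BC021614 and was matched by its identifier, ENSMUSG00000058216, so 9 were matched by name and 1 by identifier. Whole-liver RNA of 12 male C57BL/6N mice was sequenced in bulk, 3 mice in each of 4 groups. All mice carried floxed Elavl1 alleles (HuR flox/flox) and all received an AAV8 virus with the hepatocyte promoter Tbg at 4 to 6 months of age per the labels, with Cre in the mice labelled HuRHep-/- and without it (null) in the mice labelled WT. One pair of groups ate normal chow, and the other pair an enriched diet (HFCF, for high fat, cholesterol and fructose) for 16 weeks, in which fat gave 40% and fructose 20% of the calories and cholesterol made up 2%. The methods of the study describe albumin-Cre crosses instead of a virus, and the time on chow is not given in the sources used here. Each diet has its own table, so diet and table cannot be told apart.

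Glutathione transferases join the tripeptide glutathione to reactive, electrophilic compounds, which makes these soluble and ready for export. The cytosolic Pi, theta, zeta and omega classes, the mitochondrial and peroxisomal kappa class and the membrane-bound microsomal family arose from different ancestors and differ in their substrates. In mouse liver the Pi class is more abundant in males, and mice without Gstp1 and Gstp2 are known to resist acetaminophen injury. HuR, the product of Elavl1, binds AU-rich stretches of RNA, often in 3′ UTRs.

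Library totals ran from 30071731 to 35949203 counts. Elavl1, the targeted gene, had 30.9, 29.3 and 31 CPM (counts scaled to a common normalized library total) in the chow livers labelled WT, and 42.8, 39.2 and 38.8 CPM in those labelled HuRHep-/-. In HFCF livers it had 23.9, 24.1 and 27 CPM in WT and 32.4, 32.2 and 34.2 CPM in HuRHep-/-. Elavl1 was therefore higher in each liver labelled HuRHep-/- than in every WT liver of its diet, with log2 fold changes of 0.41 (SE 0.068, adjusted p = 0.022) in chow and 0.38 (SE 0.072, adjusted p = 0.0327) in HFCF. With 1 library left out, these calls were lost in 4 of 6 fits on chow (all but those without WT replicate 2 or HuRHep-/- replicate 3, adjusted p up to 0.106) and in 5 of 6 on HFCF (all but that without WT replicate 3, adjusted p up to 0.121). All directions below are for livers as labelled. Over all genes, the count of differentially expressed genes between genotypes in chow was 301, and was 110, 79, 95 and 8 without WT replicate 1, WT replicate 3, HuRHep-/- replicate 1 and HuRHep-/- replicate 2, and leaving out HFCF WT replicate 1 or any HFCF HuRHep-/- replicate took that in HFCF from 517 to between 28 and 98, while it was 850 without HFCF WT replicate 3. Of 6 hepatocyte markers (Alb, Apoa1, Ttr, Cps1, Hnf4a and Cyp2e1), 0 were at 0 counts in any group, and their summed level was 91182 to 112054 CPM in chow WT, 72915 to 80992 in chow HuRHep-/-, 66398 to 72104 in HFCF WT and 58508 to 64081 in HFCF HuRHep-/- livers.

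The 3 Pi genes lie side by side on the minus strand of chromosome 19 (GRCm38), Gstp1 from 4035407 to 4037985, Gstp2 from 4040285 to 4046023 and Gstp3 from 4057477 to 4059569, with gaps of 2.3 and 11.5 kb. The theta genes lie on the minus strand of chromosome 10, Gstt3 from 75774115 to 75781414, Gstt1 from 75783813 to 75798584 and Gstt2 from 75831114 to 75837424, with gaps of 2.4 and 32.5 kb. Gstk1 (42245935 to 42250447) and Mgst1 (138140316 to 138156755) are on the plus strand of chromosome 6, Gstz1 (87147165 to 87164723) on that of chromosome 12 and Gsto1 (47854970 to 47864790) on that of chromosome 19. The coding sequences of Gstp1 and Gstp2 were 98.1% identical, against 73.8% for Gstp1 and Gstp3 and 62.3% to 75.9% among the theta genes. Of the words of 31 bases in the transcript of Gstp1, 67.5% also occurred in Gstp2, and 69.6% of those of Gstp2 occurred in Gstp1, so reads of this pair can be split either way and their separate levels are uncertain. The share of words found in any other gene was 67.5% for Gstp1, 78.1% for Gstp2, 0.7% for Gstp3 and Gstt1, 6.9% for Gstt2, 27.0% for Gstt3, 1.6% for Gstk1, 0.1% for Gstz1 and 0% for Gsto1 and Mgst1. Gstt3 shares 524 exon bases with Gm20441 on its strand, and 26.8% of its words occurred there. Gstz1 shares 621 exon bases with genes on the opposite strand, and the kit that made the libraries keeps the strand.

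The promoters of the Pi genes, from 250 bases before to 50 after the RefSeq start site (GRCm38.p6), are shown because the diet values of these neighbours, given below, differed in sign. Capitals mark matches to the AP-1 motif TGANTCA, searched on both strands.
Gstp1, chr19:4037863-4038162, minus strand: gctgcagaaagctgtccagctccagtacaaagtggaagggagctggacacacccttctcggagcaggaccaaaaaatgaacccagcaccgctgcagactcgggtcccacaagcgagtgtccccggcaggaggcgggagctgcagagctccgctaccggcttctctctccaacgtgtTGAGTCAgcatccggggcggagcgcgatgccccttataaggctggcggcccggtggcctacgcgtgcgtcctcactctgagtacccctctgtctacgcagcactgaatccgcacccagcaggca
Gstp2, chr19:4042172-4042471, minus strand: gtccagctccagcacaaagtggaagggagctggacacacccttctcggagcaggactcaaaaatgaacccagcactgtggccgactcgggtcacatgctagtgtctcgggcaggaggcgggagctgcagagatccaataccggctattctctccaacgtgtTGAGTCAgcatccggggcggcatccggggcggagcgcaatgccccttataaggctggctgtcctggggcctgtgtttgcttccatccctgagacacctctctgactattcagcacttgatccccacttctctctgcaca
Gstp3, chr19:4059398-4059697, minus strand: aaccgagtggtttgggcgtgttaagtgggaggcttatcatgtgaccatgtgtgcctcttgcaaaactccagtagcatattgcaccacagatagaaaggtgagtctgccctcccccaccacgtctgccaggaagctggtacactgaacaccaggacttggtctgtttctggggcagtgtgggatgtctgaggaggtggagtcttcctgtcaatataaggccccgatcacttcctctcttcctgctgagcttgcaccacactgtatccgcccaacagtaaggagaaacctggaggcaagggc
The motif begins 74 bases before the start site of Gstp1 and 89 before that of Gstp2, as TGAGTCA in both, and has no match in the window of Gstp3. Of all 32851 promoters of this length, 7.8% hold it. The core of the antioxidant response element, TGACNNNGC, had 1 match among the 9 transferase genes with a listed promoter, on the minus strand of Mgst1, and is in 12.4% of all promoters. TATAAA had no match in these genes and is in 13.6% of all promoters. A match is a description of the letters and no evidence of binding.

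The AU-rich pentamer ATTTA occurred 4 times in the 774 bases of the Gstt2 3′ UTR (5.17 per kb) and 1 time in the 380 bases of that of Mgst1 (2.63 per kb). It was in 0 of the other 8 3′ UTRs, which are 56 to 896 bases long. Of 15886 genes with a 3′ UTR, 65.9% had at least 1 pentamer, with a median of 1.2 per kb and a median length of 974 bases.

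Gstp1 and Mgst1, a membrane enzyme of the endoplasmic reticulum and outer mitochondrial membrane, held most of the counts of the 10 genes. Per kilobase of exon, Gstp1 had 2069.8 ± 154 CPM (SD, n = 3) in chow WT livers and Mgst1 1780.1 ± 104. Gstt1 followed with 181 ± 30.8, Gstz1 with 148 ± 6.86, Gstk1 with 81.4 ± 7.03 and Gsto1 with 53.3 ± 3.97 CPM per kb. Each of these 6 genes lay wholly above the next in that group. Gstt2 (21 ± 1.27), Gstp3 (17.8 ± 2.41), Gstt3 (16.9 ± 6.2) and Gstp2 (10.7 ± 2.26 CPM per kb) each overlapped their neighbour in the order. In HFCF livers of both genotypes Mgst1 stood first, at 2124 ± 147 CPM per kb in WT, and Gstp1 second, at 736 ± 149.9. With the length of the coding transcript in place of all exons, Gstz1 stood above Gstt1 in each group, and the places of Gstp1 and Mgst1 were kept.

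**Figure D1:**
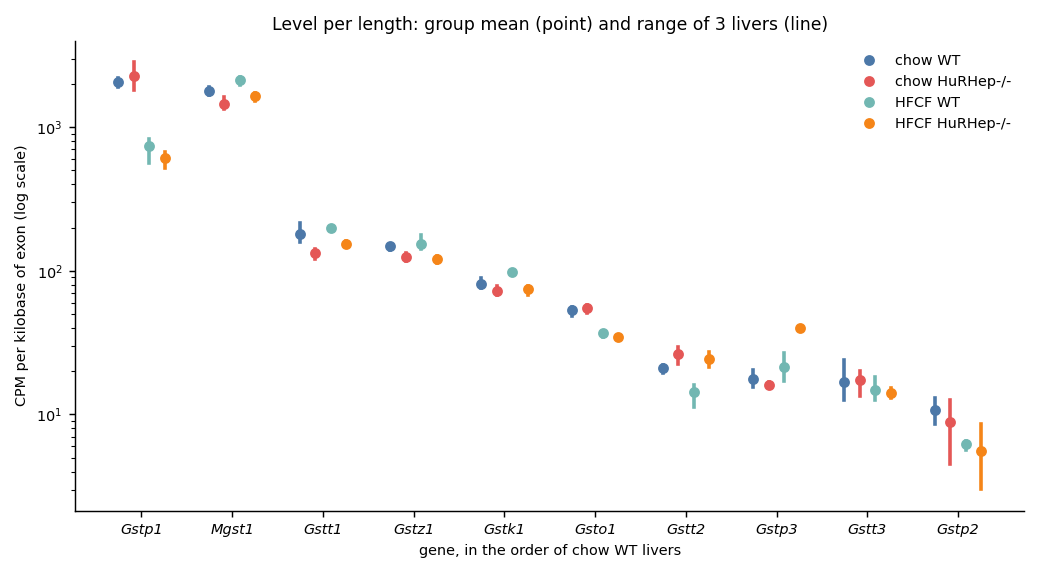
Level of each gene in CPM per kilobase of exon (log scale) in the 4 groups, with the group mean as a point and the range of 3 livers as a line. Gstp1 and Mgst1 lie above the other 8 genes in each group, and Gstp1 drops below Mgst1 in the HFCF groups.

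The diet was the contrast in which the Pi class differed most. Gstp1, the main Pi enzyme of the liver, had 3396, 3279 and 2937 CPM in chow WT livers and 1255, 1289.8 and 871 CPM in HFCF WT livers. In livers labelled HuRHep-/- it had 2820.4, 3259 and 4396 CPM on chow and 1048, 990.2 and 810.0 CPM on HFCF. Every HFCF liver was below every chow liver. Gstp1 fell 2.85-fold in WT (log2 fold change -1.51, SE 0.18, adjusted p = 0.000565 from limma) and 3.64-fold in HuRHep-/- (log2 fold change -1.86, adjusted p = 9.81e-05). Both comparisons kept their call with each library left out in turn. In bulk tissue, fewer cells of a type and less RNA per cell cannot be told apart. The hepatocyte marker sum given above was lower in HFCF than in chow livers too, and its part in this fall was not tested.

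Gstp2, the near copy of Gstp1, had 9.53 to 14.5 CPM in chow WT and 6.25 to 7.3 CPM in HFCF WT livers (log2 fold change -0.77, adjusted p = 0.166), and 5.01 to 14.2 against 3.37 to 9.62 CPM in HuRHep-/- livers (-0.67, adjusted p = 0.188; -1.11 and 0.0311 without chow HuRHep-/- replicate 1). Its libraries varied by up to 50.7% of the mean within a group. Because Gstp1 made up 95.2% to 99.3% of the 3 genes, the Pi sum followed it. Summed, the Pi counts fell 2.81-fold with diet in WT (adjusted p = 0.000568) and 3.5-fold in HuRHep-/- (adjusted p = 0.000105), and showed no difference past the test between genotypes in chow (log2 fold change 0.11, 95% interval -0.29 to 0.5) or HFCF (-0.23, -0.64 to 0.17).

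Gstp3 moved the other way with diet in livers labelled HuRHep-/-. It had 15.9, 14.1 and 18.5 CPM in chow WT, 14.6, 14.1 and 15.2 in chow HuRHep-/-, 15.5, 24.2 and 18.7 in HFCF WT and 37, 34.8 and 37.5 CPM in HFCF HuRHep-/- livers. The last group lay above all other livers. The chow WT livers overlapped both other groups, and the chow HuRHep-/- livers lay below the HFCF WT livers. Gstp3 rose 2.49-fold with diet in HuRHep-/- livers (log2 fold change 1.32, SE 0.14, adjusted p = 0.000135), and was 1.88-fold higher in HuRHep-/- than in WT livers on HFCF (0.91, SE 0.15, adjusted p = 0.0247). In WT the diet difference was 0.25 (SE 0.14, adjusted p = 0.21), and in chow the genotype difference was -0.13 (SE 0.11, adjusted p = 0.489). The difference of the genotype effects between the diets was 1.07 (SE 0.2, unadjusted p = 0.000173 and adjusted p = 0.0917 from limma), which does not pass over all genes. As a share of the Pi counts, Gstp3 was 0.343% to 0.623% in chow livers, 1.22% to 2.08% in HFCF WT and 3.37% to 4.41% in HFCF HuRHep-/- livers.

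Cholangiocyte and lymphocyte markers were also highest in HFCF HuRHep-/- livers, with no overlap of their sums. The summed level of 6 cholangiocyte markers (Krt7, Krt19, Epcam, Sox9, Spp1 and Cftr) was 133 to 242 CPM in HFCF HuRHep-/- livers, against 38.6 to 87.4 in HFCF WT and 35.1 to 79 in chow livers, and 5 of 5 tested rose with diet in HuRHep-/-. The 6 stellate cell markers summed to 353 to 445 CPM there, 161 to 364 in HFCF WT and 124 to 192 in chow livers, and 6 of 6 rose with diet in HuRHep-/-. The 7 Kupffer cell and macrophage markers summed to 261 to 439.5, 192 to 306 and 121 to 256 CPM in the same order, with 3 of 7 rising, near the 38.9% of all genes past the test with diet in HuRHep-/-. The 5 lymphocyte markers summed to 4.41 to 5.86, 1.92 to 2.85 and 2.14 to 3.64 CPM, with 3 of 5 rising. The 5 sinusoidal endothelium markers summed to 94.4 to 96.5, 83 to 95.6 and 77.2 to 102 CPM, with 1 of 5 rising, below that share. With diet in WT, where Gstp3 did not pass, 3 of 7 Kupffer cell and macrophage markers (Vsig4, Cd68 and Cd5l) and 1 of 6 stellate cell markers (Lrat) rose too, where 24.2% of all genes passed. Between genotypes on HFCF, where Gstp3 passed, 2 of 5 tested cholangiocyte markers (Krt7 and Krt19) were higher, where 6.79% of all genes passed. Of the Kupffer cell and macrophage, stellate cell, lymphocyte and sinusoidal endothelium markers, 0 passed there. No marker was at 0 counts in all livers of a group, and the part of other cells in the Gstp3 result was not tested.

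**Figure D2:**
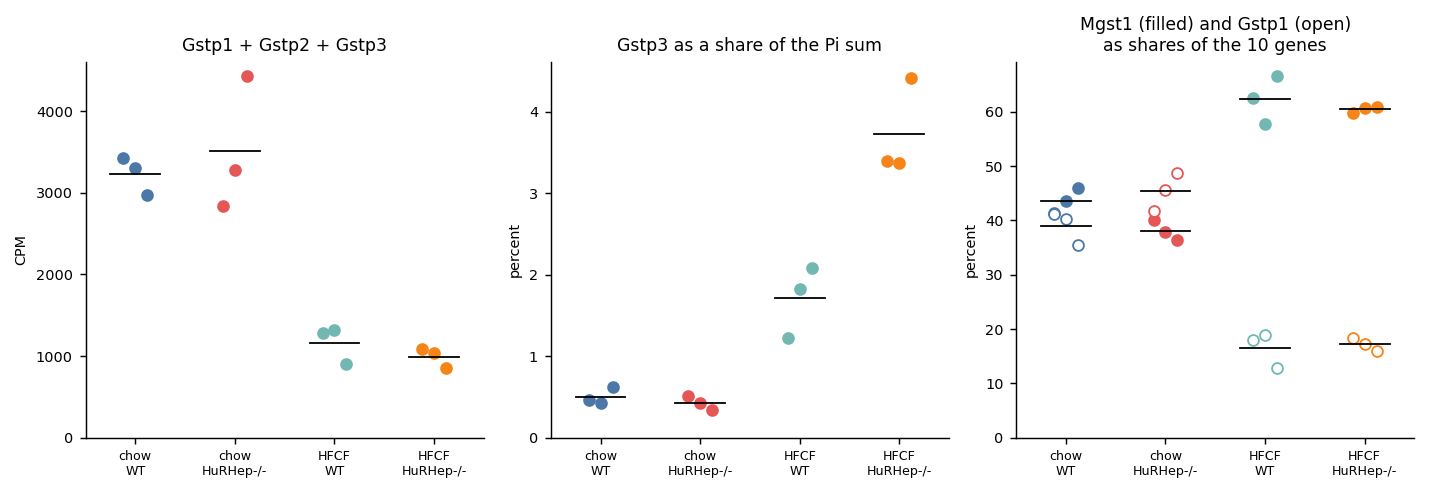
Left, summed CPM of Gstp1, Gstp2 and Gstp3. Middle, Gstp3 as a percentage of that sum. Right, Mgst1 (filled) and Gstp1 (open) as percentages of the 10 genes. Points are livers and black lines group means (n = 3). The Pi sum lies at 851 to 1321 CPM in HFCF livers and at 2840.0 or more in chow livers, and the share of Gstp3 is highest in HFCF HuRHep-/- livers.

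Gsto1, the omega enzyme, reduces dehydroascorbate and protein-bound glutathione in place of forming conjugates. It had 113, 98.5 and 112 CPM in chow WT and 69.5, 77.2 and 77.2 CPM in HFCF WT livers. In HuRHep-/- livers it had 115, 103 and 117 CPM on chow and 66.5, 72.2 and 71.1 CPM on HFCF. All HFCF livers were below all chow livers. Gsto1 fell 1.44-fold with diet in WT (adjusted p = 0.00105) and 1.6-fold in HuRHep-/- (adjusted p = 0.000183), and both calls held with each library left out. Between genotypes it differed by 0.06 (SE 0.077) in chow and by -0.11 (SE 0.068) in HFCF on the log2 scale, with overlapping groups.

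The theta class differed in both directions. Gstt2, which acts on organic hydroperoxides and sulfate esters, had 91.4, 81.2 and 88.9 CPM in chow WT, 93, 111 and 123 in chow HuRHep-/-, 65, 47 and 67.1 in HFCF WT and 89, 99.6 and 113 CPM in HFCF HuRHep-/- livers. Each HuRHep-/- liver was above every WT liver of its diet, and the HFCF WT livers were the lowest. Gstt2 was 1.68-fold higher in HuRHep-/- than in WT livers on HFCF (log2 fold change 0.75, SE 0.15, adjusted p = 0.0377). On chow the difference was 0.32 (SE 0.1, adjusted p = 0.123), not past the test. With diet Gstt2 fell 1.48-fold in WT (-0.56, SE 0.14, adjusted p = 0.0152; 0.0562 without chow WT replicate 1), and differed by -0.11 (SE 0.14, adjusted p = 0.547) in HuRHep-/-. The genotype difference was not shown to differ between diets (0.45, SE 0.2, adjusted p = 0.336). Gstt2 holds 4 of the 5 ATTTA pentamers counted above, and 65.9% of all genes with a 3′ UTR hold at least 1. Gstp3, also higher in HuRHep-/- livers on HFCF, holds 0. Any part of these pentamers in the Gstt2 levels was not tested.

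Gstt1, the neighbour of Gstt2, which conjugates small halogenated compounds, differed the opposite way. It had 258, 243 and 331 CPM in chow WT, 216, 185 and 207 in chow HuRHep-/-, 306, 309.9 and 296 in HFCF WT and 232, 246 and 231 CPM in HFCF HuRHep-/- livers. Each HuRHep-/- liver was below every WT liver of its diet. Gstt1 was 1.3-fold lower in HuRHep-/- on HFCF (log2 fold change -0.38, SE 0.061, adjusted p = 0.0235). On chow it differed by -0.44 (SE 0.12, adjusted p = 0.084), and passed there only in the fit over all 12 libraries (adjusted p = 0.0266). Gstt3, the third theta gene, had 48.6 to 92.2, 51.8 to 77.6, 48.2 to 70.5 and 50.2 to 59.2 CPM in the groups in the order above, with wide overlap and no comparison past the test. Counts on the overlapping gene Gm20441 added to Gstt3 changed its log2 fold changes to 0.11 and -0.03 between genotypes and -0.13 and -0.25 with diet, none past the test.

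Gstk1, the kappa enzyme, had 115, 112 and 131 CPM in chow WT, 105, 100.1 and 116 in chow HuRHep-/-, 137, 147 and 146 in HFCF WT and 112, 116 and 99.4 CPM in HFCF HuRHep-/- livers. The HFCF WT livers were the highest of all 12. Gstk1 was 1.33-fold lower in HuRHep-/- than in WT livers on HFCF (log2 fold change -0.41, SE 0.075, adjusted p = 0.0308) and rose 1.2-fold with diet in WT (0.26, SE 0.082, adjusted p = 0.0366). On chow the genotype difference was -0.15 (SE 0.083, adjusted p = 0.303), and in HuRHep-/- the diet difference was 0.03 (SE 0.082, adjusted p = 0.804).

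Gstz1, an isomerase that acts on maleylacetoacetate in the breakdown of tyrosine, had 783, 714 and 757 CPM in chow WT and 617, 601 and 679 CPM in chow HuRHep-/- livers. On HFCF it had 724, 902 and 735 CPM in WT and 645, 628 and 574 CPM in HuRHep-/-. Mgst1 had 3397, 3543 and 3809 CPM in chow WT, 2705, 2706 and 3287 in chow HuRHep-/-, 4381, 3941 and 4503 in HFCF WT and 3398, 3489 and 3079 CPM in HFCF HuRHep-/- livers. For both genes each HuRHep-/- liver was below every WT liver of its diet, and the test over all genes was not passed. The log2 fold changes of Gstz1 were -0.24 (SE 0.076, adjusted p = 0.114) in chow and -0.36 (SE 0.11, adjusted p = 0.0801) in HFCF, and those of Mgst1 -0.3 (SE 0.12, adjusted p = 0.178) and -0.38 (SE 0.12, adjusted p = 0.0921). The hepatocyte marker sum given above was also lower in each HuRHep-/- liver than in every WT liver of its diet. Of its 6 genes, 0 passed between genotypes on chow and 1, Cyp2e1, was lower on HFCF. The part of this sum in the lower values of Gstz1, Mgst1, Gstt1 and Gstk1 was not tested. Of the counts of all 10 genes, Mgst1 took 43.6% ± 2.34 (SD, n = 3) in chow WT, 38.1% ± 1.79 in chow HuRHep-/-, 62.3% ± 4.33 in HFCF WT and 60.4% ± 0.57 in HFCF HuRHep-/- livers.

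**Figure D3:**
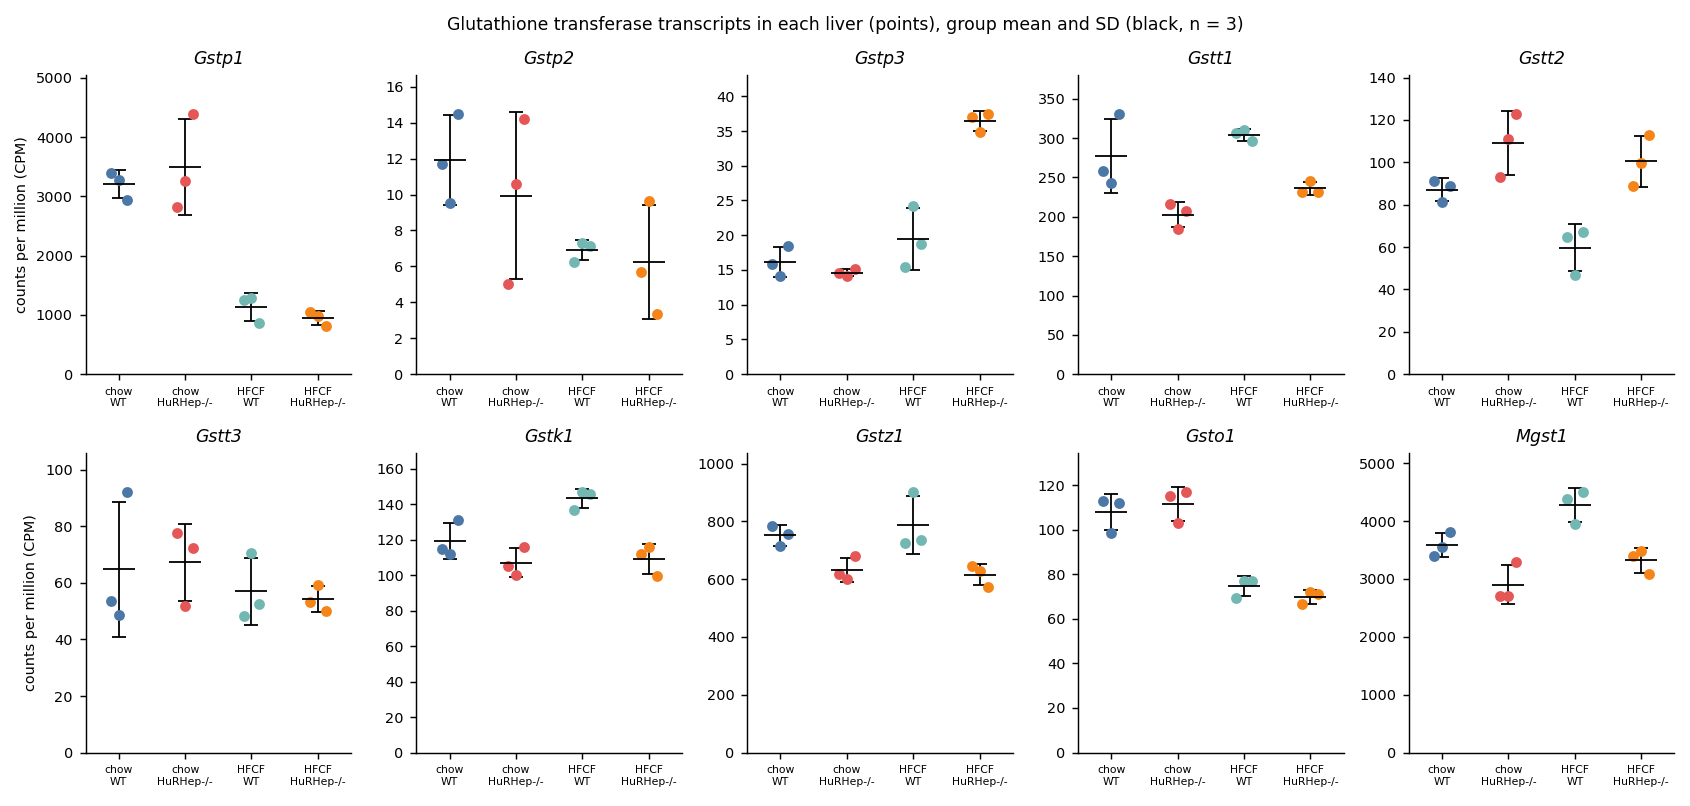
CPM of each gene in each liver (points) by group, with the group mean and SD in black (n = 3). Gstp1 and Gsto1 are lower in all HFCF livers, Gstp3 stands out in HFCF HuRHep-/- livers, and Gstt2 and Gstt1 differ between genotypes in opposite directions.

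By comparison, the genotype on chow gave 0 of the 10 genes past limma's test (adjusted p of at most 0.05), where 4.18% of 13526 genes passed, and 0 differentially expressed genes (those that also differed 1.5-fold or more and had 10 counts over each group), where 2.23% did. Unadjusted, 4 had a p under 0.05 (Gstt1, Gstt2, Gstz1 and Mgst1), as had 3184 of the 13526 genes, and with voom weights 0 passed. The same 4 had groups that did not overlap, against 29.5% of all genes. On HFCF, 4 of 10 passed between genotypes, where 6.79% of 14295 genes did, with Gstp3 and Gstt2 higher and Gstt1 and Gstk1 lower. Gstp3 and Gstt2 were differentially expressed, where 3.62% of genes were, and 6 of 10 did not overlap, where 36.8% did. Each of the 4 calls was lost without HFCF WT replicate 1 or without any 1 of the HFCF HuRHep-/- replicates, with an adjusted p of up to 0.109 for Gstp3, 0.118 for Gstt2, 0.116 for Gstt1 and 0.117 for Gstk1, and kept without HFCF WT replicate 2 or 3. Their log2 fold changes stayed between 0.77 and 1.08, 0.58 and 0.84, -0.41 and -0.36, and -0.46 and -0.34.

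With diet in WT, 4 of 10 passed (Gstp1, Gstt2 and Gsto1 lower and Gstk1 higher), where 24.2% of 14535 genes did, 1 was differentially expressed (Gstp1), where 9.38% were, and 6 did not overlap, where 37.6% did. Over all genes, 3511 passed, and 1979, 2295 and 2103 without chow WT replicate 1, chow WT replicate 3 and HFCF WT replicate 3, so the share of all genes rests on these libraries too. The call of Gstk1 was lost without chow WT replicate 1 or 2 or any HFCF WT replicate, with an adjusted p of up to 0.117. With diet in HuRHep-/-, 3 of 10 passed and all 3 were differentially expressed (Gstp1 and Gsto1 lower and Gstp3 higher), where 38.9% and 19.1% of genes did, and 4 did not overlap, where 54.6% did. For genotype by diet, the difference of the genotype effects between the diets, limma passed 0 of 10 and 0 of 14535 genes (0% by either rule). Unadjusted, 2088 genes had a p under 0.05, among them Gstp3 and Gstt2, and with voom weights 1 gene passed, which was not a transferase of this group. Without HFCF WT replicate 3, 41 genes passed and 34 were differentially expressed, and without chow WT replicate 2, 2 passed, with 0 of the 10 transferases past limma's test in any fit with 1 library left out. The 2 genotype comparisons share no library, but each diet comparison shares 3 libraries with each of them.

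**Figure D4:**
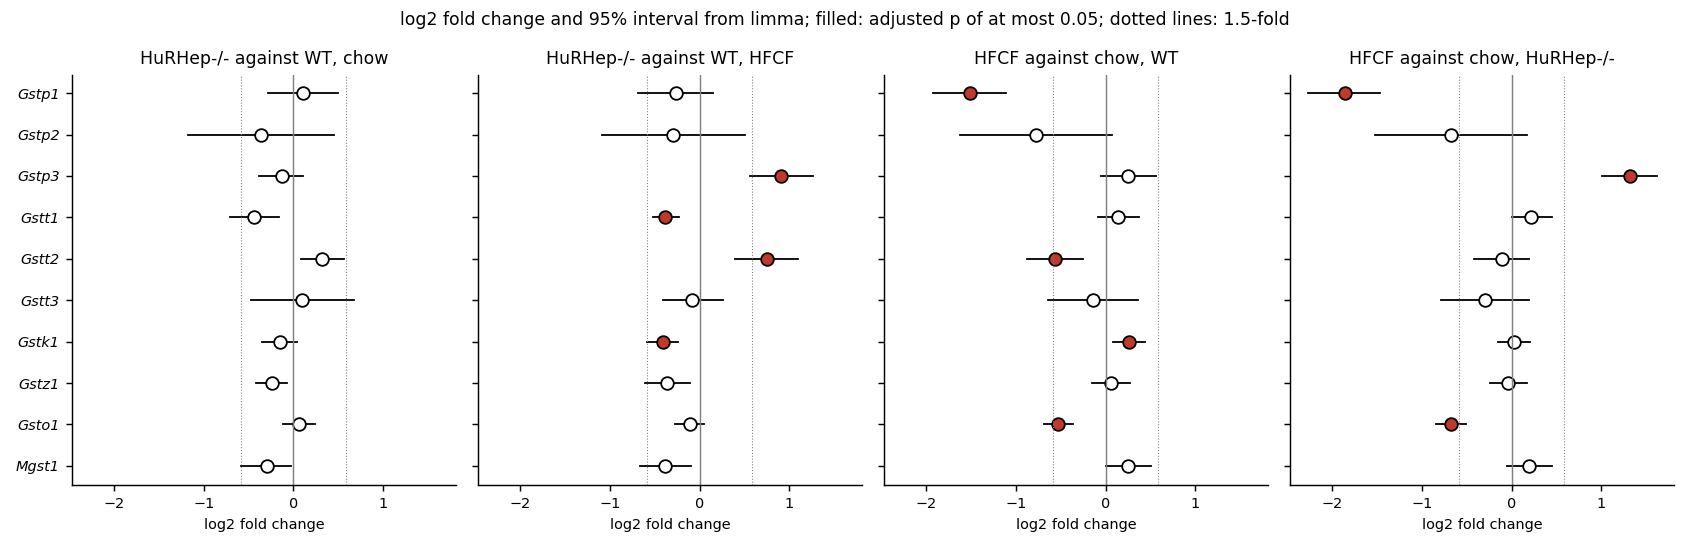
log2 fold change of each gene with its 95% interval in 4 comparisons, filled where the adjusted p is at most 0.05, with dotted lines at 1.5-fold. Gstp1 and Gsto1 lie left of 0 in both diet panels, and Gstp3 lies right of the dotted line in the HFCF genotype panel and the HuRHep-/- diet panel.

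Other genes of glutathione metabolism were counted from lists. The counts with diet are to be read against the 24.2% of all genes past the test in WT and 38.9% in HuRHep-/-, and those between genotypes against 4.18% on chow and 6.79% on HFCF. Of 11 alpha and mu transferases, the other cytosolic classes, 2 were lower between genotypes on chow (Gstm6 and Gstm7) and 0 passed on HFCF, with 4 at an unadjusted p under 0.05. With diet, 2 fell in WT (Gstm6 and Gstm7) and 4 rose in HuRHep-/- (Gsta1, Gstm2, Gstm3 and Gstm4), neither above the share of all genes. Gstm2 had means of 81.2, 66.7, 94.6 and 240 CPM in chow WT, chow HuRHep-/-, HFCF WT and HFCF HuRHep-/- livers, and rose 3.44-fold with diet in HuRHep-/- (adjusted p = 0.000954). Gsta1 had 10.8, 6.12, 30.5 and 61.5 CPM and rose 10.7-fold there (adjusted p = 0.00419). The median log2 fold change of this list with diet in HuRHep-/- was 0.68, against 0.002 over all genes. Gstm7 was 1.56-fold lower in HuRHep-/- livers on chow (64 and 40.8 CPM, adjusted p = 0.0131, up to 0.0755 without chow WT replicate 3 or chow HuRHep-/- replicate 1 or 2), and Gstm6 fell 1.58-fold with diet in WT (149 and 94.4 CPM, adjusted p = 0.00936).

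Of 17 targets and regulators of NRF2, the transcription factor that acts on antioxidant response elements, 0 passed between genotypes on chow (4 at an unadjusted p under 0.05, and a median of 0.02), and 1 was lower on HFCF (Txnrd1). With diet, 4 rose in WT and 10 rose and 1 fell in HuRHep-/-, with medians of 0.25 and 0.53. The count in WT is not above the share of all genes, 24.2%, and that in HuRHep-/- stands beside 38.9%. Nfe2l2, which encodes NRF2, rose 1.28-fold with diet in WT (adjusted p = 0.003) and 1.32-fold in HuRHep-/- (57.9 to 76.2 CPM, adjusted p = 0.000932). Srxn1, which repairs oxidized peroxiredoxins, rose 2.08-fold in WT (adjusted p = 0.00335) and 2.19-fold in HuRHep-/- (32.9 to 73.3 CPM, adjusted p = 0.00131). Pgd of the pentose phosphate pathway rose 1.62-fold in WT (adjusted p = 0.0295) and 2.32-fold in HuRHep-/- (32.5 to 77.5 CPM, adjusted p = 0.00128). The carbonyl reductase Cbr3 rose 8.47-fold in HuRHep-/- (0.59 to 5.42 CPM, adjusted p = 0.00134), and its log2 fold change in WT was 1.24 (adjusted p = 0.108). Gstp1, often counted among NRF2 targets, fell in the same livers, and Mgst1 differed by 0.2 (SE 0.12, adjusted p = 0.191).

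Of 15 genes of glutathione synthesis and recycling, 0 of 14 tested passed between genotypes on chow (1 at an unadjusted p under 0.05), and on HFCF Ggct was higher and Glrx2 lower. With diet, 2 rose and 1 fell in WT, and 4 rose and 2 fell in HuRHep-/-, which is near the shares of all genes, 24.2% and 38.9%. In HuRHep-/- livers Ggct, which splits gamma-glutamyl peptides, rose 1.71-fold (6.75 to 11.5 CPM, adjusted p = 0.000982), Gpx4, which reduces lipid hydroperoxides, 1.59-fold (257 to 409 CPM, adjusted p = 0.00616) and the synthetase Gss 1.41-fold (75.2 to 106 CPM, adjusted p = 0.00639). In WT, Ggct rose 1.37-fold (adjusted p = 0.0234) and Gpx4 1.4-fold (adjusted p = 0.042), and Gss did not pass (adjusted p = 0.293). Gclm, the modifier subunit of the rate-limiting ligase, fell 1.24-fold in HuRHep-/- (210 to 169 CPM, adjusted p = 0.00267). Of 11 genes of the mercapturate route, which trims conjugates for excretion, 10 were tested. Between genotypes, Anpep and Ggt6 were higher on chow (Anpep 97.7 and 123 CPM, adjusted p = 0.0461, a call kept only without chow WT replicate 2, with a p up to 0.169 in the other 5 fits), and 0 passed on HFCF (2 at an unadjusted p under 0.05). With diet, 2 rose and 1 fell in WT and 3 rose in HuRHep-/-. Ggt6 rose 1.45-fold in WT (16 to 23.3 CPM, adjusted p = 0.00404) and 1.38-fold in HuRHep-/- (22.9 to 31.5 CPM, adjusted p = 0.00507). The conjugate exporter Abcc1 rose 1.73-fold in WT (0.781 to 1.42 CPM, adjusted p = 0.048) and 2.69-fold in HuRHep-/- (0.967 to 2.62 CPM, adjusted p = 0.00197). The aminoacylase Acy1 fell 1.38-fold with diet in WT (42.8 to 31.3 CPM, adjusted p = 0.00648).

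Of 7 genes of phenylalanine and tyrosine degradation, the route of Gstz1, 0 passed between genotypes on chow (3 at an unadjusted p under 0.05) or on HFCF (0 unadjusted). With diet, Pcbd1 of this list rose 1.21-fold in HuRHep-/- (232 to 280 CPM, adjusted p = 0.0202), a call lost without chow HuRHep-/- replicate 2 or HFCF HuRHep-/- replicate 1 or 2 (adjusted p up to 0.0746). Of 9 other transferases and related membrane enzymes, 0 of 5 tested passed between genotypes on chow and 0 of 6 on HFCF, with 1 and 2 at an unadjusted p under 0.05. With diet, 2 of 6 rose in each genotype. The prostaglandin D synthase Hpgds rose 3.49-fold in WT (0.485 to 1.79 CPM, adjusted p = 0.00256) and 2.36-fold in HuRHep-/- (1.02 to 2.46 CPM, adjusted p = 0.00888), and Mgst3, of the family of Mgst1, 1.87-fold in HuRHep-/- (10.4 to 19.5 CPM, adjusted p = 0.0432, lost without any HuRHep-/- replicate or WT replicate 1 of either diet, up to 0.116). Ptges passed with diet in WT at means of 0.0548 and 0.377 CPM (adjusted p = 0.00372).

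**Figure D5:**
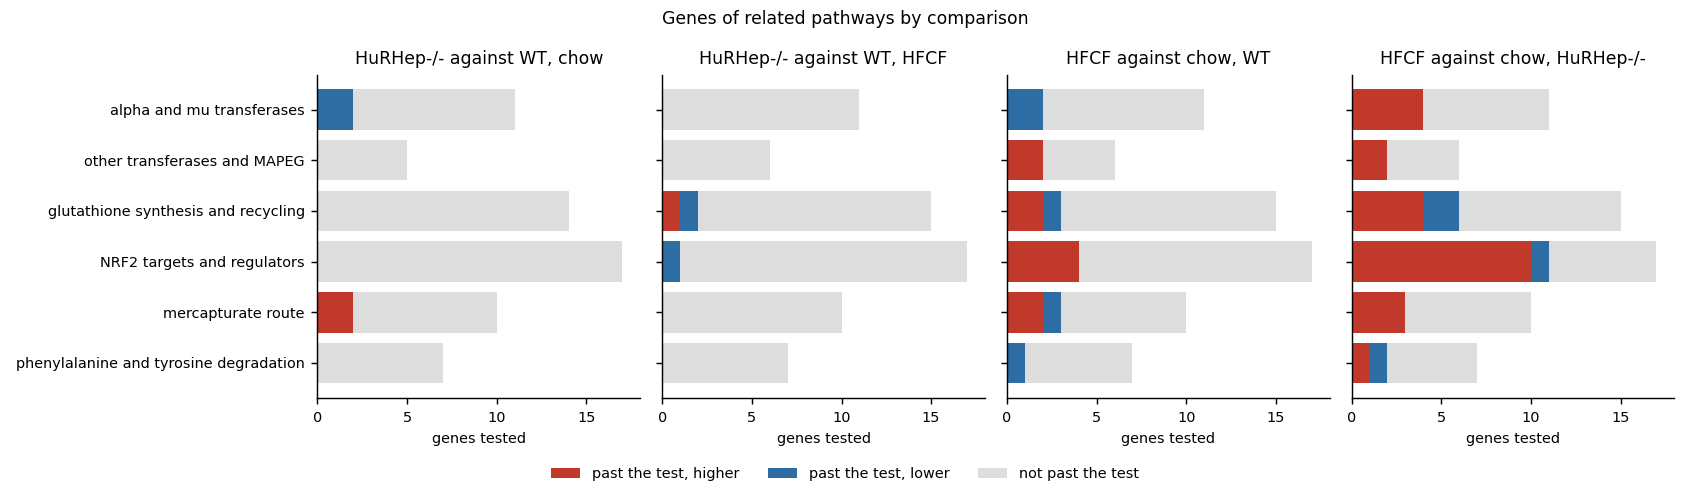
Number of genes tested in each of 6 related lists (x axis), by comparison, coloured by whether they passed the test and in which direction. The most calls are among NRF2 targets and regulators with diet in HuRHep-/- livers, 10 higher and 1 lower of 17.

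Over the 12 libraries, the gene outside the group whose log2 CPM was most correlated with each transferase, among 10168 genes whose normalized counts averaged 100 or more, was Rnf103 for Gstp1 (Pearson r = 0.99, Spearman rho = 0.89), Arpc1a for Gstp3 (0.95 and 0.93), Dnase2b for Gstt1 (0.94 and 0.94), Fibp for Gstt2 (0.93 and 0.92), Psmd1 for Gstk1 (0.93 and 0.92), Hibadh for Gstz1 (0.97 and 0.97), Atg2b for Gsto1 (0.99 and 0.99) and Hsd17b12 for Mgst1 (0.97 and 0.92). For Gstp2 it was Trim8 (0.9 and 0.82) and for Gstt3 Ppp5c (0.84 and 0.67). These are descriptions over libraries that share group means. Around the group means, r was between 0.82 and 0.95 for 8 of the 10 pairs, 0.68 for Gstt1 and Dnase2b and 0.5 for Gstp3 and Arpc1a. These values come from the libraries by which each pair was picked for its high r, so they are no separate check. A high r does not mean a difference of like size. Rnf103 had means of 87.5 CPM in chow WT and 71.1 CPM in HFCF WT livers.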

How the data were processed

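RNA was extracted from 12 livers and sequenced from stranded libraries, 1 per mouse, with RNA integrity numbers above 6.0 per the labels. Per the study's methods, the authors used CLC Genomics Workbench for alignment (mouse build GRCm38.p6). They deposited raw read counts by gene, 1 table for each diet, without normalization. All deposited counts proved whole once the commas inside the larger ones were removed. Their log2 values were tested with limma, and no count model was fitted. The tables list 20775 genes for chow and 22709 for HFCF, and 0 columns were left out.

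Counts were divided by library totals scaled with TMM factors (trims 0.3 and 0.05) and taken as log2 CPM with a pseudocount of 0.5. The filter kept genes with 15 counts in total whose CPM, in 3 or more libraries, reached that of 10 counts in a library of median size. limma 3.58.1 in R 4.3.3 fitted group means with a variance trend, within a diet for genotype and over 12 libraries otherwise, with Benjamini-Hochberg adjustment over all genes. Genes were called differentially expressed at an adjusted p up to 0.05 with a 1.5-fold or larger difference and 10 counts over each group. An exact permutation test of 3 against 3 cannot give a p under 0.1. Levels per kilobase used the exon union of GENCODE M21. Figures and summaries used Python 3.11.15. On simulated counts the fits called 183 to 187 of 200 changed genes in the pairwise comparisons and 130 of 200 in the interaction, beside 7 to 16 unchanged genes. The planted log2 fold changes were 1 or 1.5, in well-counted genes with a fixed spread. Most differences of the 10 genes were smaller, so these rates do not carry over to them. The alternatives covered size factors (RLE, upper quartile), the filter, a pseudocount of 2, voom weights, a replicate block, other sets of libraries and leaving out each library. The genes described, the lists and the tests were chosen with earlier results of these data known. The genes named beyond the 10 were Elavl1, at most 4 of each list past the test by smallest p, and the most similar gene for each. A gene that this rule names is not reported here.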

Additional observations from a re-analysis of the deposited data

How the results depend on the processing

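Over the 10 genes, Elavl1, the Pi sum and the genes named from lists, 1358 of the values recomputed under the alternatives kept their direction and side of the threshold, 63 lost the threshold, 8 gained it and 31 changed sign. The count of differentially expressed genes on HFCF between genotypes was 2, went to 0 to 2 with 1 library left out, and was 4 without the fold change. With diet in WT it was 1, went to 1 to 3 with 1 library left out, and was 2 with only the 6 libraries compared and 4 without the fold change. None of the values that changed sign passed the test. Upper-quartile factors gave 0.04 for Gstz1 with diet in HuRHep-/- and 0.03 for Elavl1 in genotype by diet, and requiring 10 counts in every library gave 0.01 for Elavl1 there.

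With 1 library left out, log2 fold changes between genotypes on chow ran from -0.08 to 0.38 for Gstt3, 0 to 0.11 for Gsto1, -0.68 to 0.06 for Gstp2, -0.07 to 0.25 for Gstp1 and -0.07 to 0.24 for the Pi sum, and on HFCF from -0.17 to 0.08 for Gstt3 and -0.66 to 0.1 for Gstp2. With diet they ran from -0.32 to 0.14 for Gstt3 and -0.04 to 0.12 for Gstz1 in WT, and from -0.02 to 0.09 for Gstk1 and -0.07 to 0.02 for Gstz1 in HuRHep-/-. In genotype by diet they ran from -0.04 to 0.05 for Elavl1, -0.44 to 0.03 for Gstt3, -0.33 to 0.48 for Gstp2, -0.05 to 0.17 for Gstt1, -0.11 to 0.04 for Mgst1 and -0.15 to 0 for Gstz1. The cause was not tested. Other filters and sets of libraries moved Gstk1 with diet in WT to an adjusted p of 0.0587 (no filter) and 0.0576 (6 libraries), Gstz1 on HFCF to 0.0369 (12 libraries), Gstp2 with diet in WT to 0.0242 (6 libraries), and Gstt1 with diet in HuRHep-/- to 0.0313 (upper-quartile factors) and 0.0359 (6 libraries). Under the settings applied to the genes of the lists, chosen after seeing the data, Anpep between genotypes on chow went to 0.0503 (upper-quartile factors), 0.0551 (no filter) and 0.0509 (voom weights), and Mgst3 with diet in HuRHep-/- to 0.0513 (no filter). Calls were also gained without chow WT replicate 3 for Gstt1 with diet in WT (0.28, adjusted p 0.0351) and in HuRHep-/- (0.22, adjusted p 0.0274), and without chow HuRHep-/- replicate 1 for Gstp2 with diet in HuRHep-/- (-1.11, adjusted p 0.0311).

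With the replicate number as a replicate block, the counts of differentially expressed genes were 0, 2, 1, 3 and 0 in the order of the report, as without it, and no call on the 10 genes changed. Deviations of same-numbered libraries of the genotypes correlated at -0.03 to 0.19, so the numbers were not taken to pair the mice. Over all genes the replicate block moved the count in chow from 301 to 226 and in HFCF from 517 to 764, and the genes past the test in chow from 566 to 341. With all 12 libraries in 1 fit, the genes past the test between genotypes went from 566 to 947 in chow and from 971 to 1621 in HFCF, and with only the 6 libraries compared, those with diet in WT went from 3511 to 2058. With 3 mice a group and counts of 125 to 461 for Gstp2, its differences were the least precise of the 10.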
